A study of Mus musculus with 4 samples.

Results

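Genes by which macrophages of tissues are recognised were examined in lung endothelial cells (ECs) isolated 7 days after unilateral pneumonectomy (PNX) and in ECs from sham-operated lungs. The genes were Csf1r, Adgre1, Cd68, Mertk, Mrc1, Cd163, Folr2, Trem2 and Gpnmb. They were chosen by name, 8 of the 9 were found by their symbol, and Adgre1 was found by its RefSeq accession under the older symbol Emr1, which makes 9 of the 24063 symbols in the deposited tables. All 9 passed the filter on low counts.

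Both groups were C57BL6 mice (C57BL6J in the study's methods) of 8 weeks for which the labels name no transgene, and the sham mice had the chest opened without removal of the left lung. Each group had 2 libraries, each made from the pooled cells of 2 mice. Cells were selected with anti-CD31 magnetic beads in 2 passes over a column, and the study describes them by FACS as CD31+, VE-cadherin+ and CD45-. With 1 transcript taken for each symbol, the libraries held between 41367438 and 50952879 counts, so that 3 counts, the smallest level these depths can show, correspond to between 0.0589 and 0.0725 CPM (counting error only). The mice are labelled male, whereas 4 Y-linked genes (Ddx3y, Eif2s3y, Kdm5d and Uty) had 0 counts in every library and Xist had between 31872 and 33792 normalized counts. This held in all 4 libraries and does not separate the groups.

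Macrophages depend on CSF1 receptor signalling for their survival, and they take up dying cells, lipoproteins, haemoglobin and matrix fragments through families of surface receptors that feed the lysosome. The normal lung holds alveolar macrophages in the airspace and interstitial macrophages along vessels, airways and the pleura. CD31, the antigen used for the selection, is carried by ECs and also by platelets and many leukocytes, among them monocytes. Mrc1 is also expressed by lymphatic and sinusoidal endothelium, so that not every member is confined to macrophages.

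Macrophage marker genes were higher after PNX with 1 exception. In post-PNX ECs 8 of the 9 genes rose (adjusted p below 0.01 over 16208 genes by the quasi-likelihood test of edgeR), and Mertk fell. The direction was not rare in itself, since 29.3% of all genes tested rose and 27.8% fell by the same rule. When the log2 fold change also had to exceed 1, 5 members (Adgre1, Cd163, Folr2, Trem2 and Gpnmb) rose, against 5.9% of all genes tested. The median log2 fold change of the 9 genes was 1.04, beside 0.00 over all genes tested. Normalized counts of the groups did not overlap in any of the 9 genes, which was also so in 81.2% of all genes. The members took 0.0602% and 0.0594% of the counts in the sham libraries and 0.0976% and 0.0974% after PNX. In RNA of a whole cell fraction, more macrophages and more RNA of these genes per cell cannot be told apart.

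**Figure D1:**
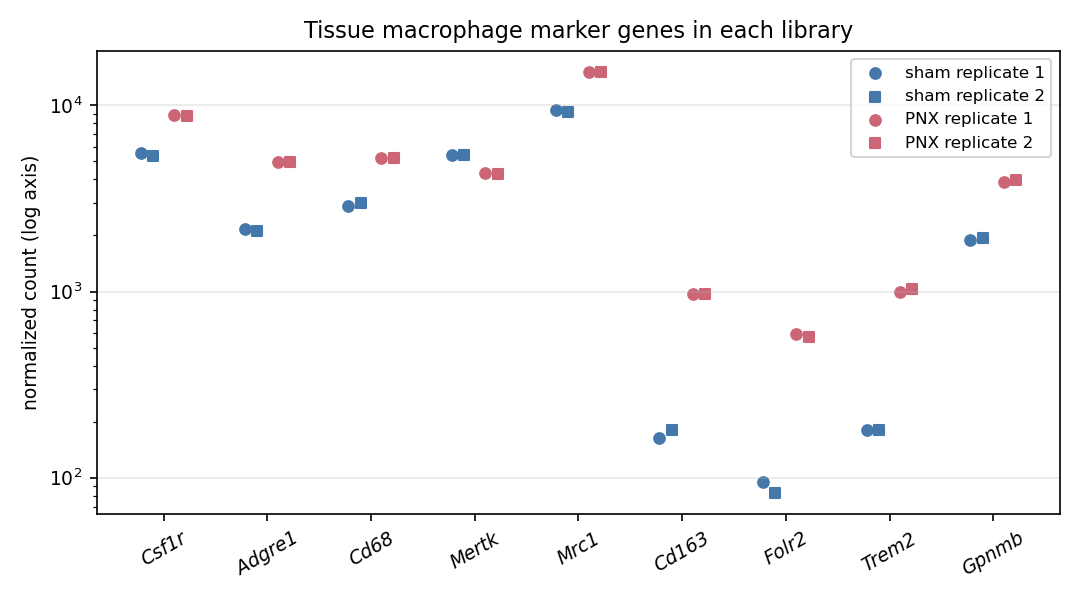
Normalized counts (log axis) of the 9 tissue macrophage marker genes in the 2 sham libraries (blue) and the 2 post-PNX libraries (red), 1 point per library. The points of a group lie close together, the post-PNX points are above the sham points in 8 genes, and they are below them in Mertk.

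Csf1r, Adgre1 and Cd68 mark the lineage as a whole. In this and the next paragraphs a change is given as log2 fold change of post-PNX over sham ECs ± the standard error of the edgeR fit, with the adjusted p of that fit. Csf1r, which encodes the receptor for CSF1 and IL-34, lies on chromosome 18 from 61105572 to 61131139 (mm10). It had 5578 and 5347 normalized counts in sham ECs and 8836 and 8735 after PNX. Both post-PNX libraries lay well above the sham libraries, and the change was 0.68 ± 0.024 (adjusted p = 5.2e-34). Adgre1, which encodes the adhesion receptor F4/80, lies on chromosome 17 from 57358581 to 57483529. It had 2159.7 and 2116 normalized counts in sham ECs and 4968 and 4964 after PNX. The post-PNX libraries were nearly equal and the groups far apart, with a change of 1.22 ± 0.031 (adjusted p = 6.6e-42). Cd68 encodes a glycoprotein of late endosomes and lysosomes and lies on chromosome 11 from 69664213 to 69666170. It had 2875 and 3006 normalized counts in sham ECs and 5209.9 and 5208 after PNX, without overlap, a change of 0.83 ± 0.029 (adjusted p = 3.4e-34). Of the 3 lineage genes Adgre1 alone passed the fold threshold under TMM scaling.

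Among the scavenger and uptake receptors the changes ran from a fall to the highest rise among the 9 genes. Mrc1 encodes the mannose receptor CD206 and lies on chromosome 2 from 14229414 to 14332023. It was the member with the most counts, with 9393 and 9172 in sham ECs and 15101 and 15135 after PNX. The groups did not overlap, and the change of 0.70 ± 0.021 (adjusted p = 4.4e-38) was close in size to that of Csf1r. Cd163 encodes the receptor for complexes of haptoglobin and haemoglobin and lies on chromosome 6 from 124304636 to 124330529. It had 163 and 181 normalized counts in sham ECs and 967 and 968 after PNX. Cd163 was thus low in sham ECs and clearly higher in both post-PNX libraries, a change of 2.49 ± 0.077 (adjusted p = 2.8e-37). Folr2, which encodes folate receptor beta, lies on chromosome 7 from 101839988 to 101857190. It had 95.1 and 82.6 normalized counts in sham ECs and 592 and 569 after PNX. By counts it was the lowest member in sham ECs, and its change of 2.70 ± 0.10 was the largest of the 9 (adjusted p = 1.1e-32). Mertk, a receptor tyrosine kinase through which macrophages engulf apoptotic cells, lies on chromosome 2 from 128698915 to 128803162. It had 5442 and 5396 normalized counts in sham ECs and 4330.5 and 4286 after PNX. Here the post-PNX libraries were the lower ones, with a change of -0.33 ± 0.027 (adjusted p = 4.8e-17). With endothelial markers as the basis of scaling, Mertk changed by -0.07 and did not pass (adjusted p = 0.0260). Those 12 endothelial markers had a median log2 fold change of -0.25 under TMM scaling. Which cells the Mertk RNA came from was not tested.

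Trem2 and Gpnmb are known from macrophages that handle lipid and debris. Trem2, a receptor for lipids and lipoproteins, lies on chromosome 17 from 48346401 to 48352276. It had 180.3 and 179 normalized counts in sham ECs and 998 and 1031 after PNX. The groups were far apart, and the change of 2.49 ± 0.075 (adjusted p = 6.2e-38) equalled that of Cd163 to 2 decimals. Gpnmb encodes a transmembrane glycoprotein of lysosomes and melanosomes and lies on chromosome 6 from 49036518 to 49058182. It had 1884 and 1947 normalized counts in sham ECs and 3883 and 3992 after PNX. Its change of 1.04 ± 0.033 (adjusted p = 1.4e-36) was just past the fold threshold, and with 8 pan-leukocyte markers as the basis of scaling it was 0.91. The 8 members that rose lay high among the genes tested, between percentile 90.7 for Csf1r and percentile 98.8 for Folr2, while Mertk was at percentile 16.0.

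The proximal promoters of 4 members are shown, those of Trem2 and Cd163, whose changes were alike, of Mrc1, which had the most counts, and of Mertk, which fell. Promoters of 7 of the 9 genes were searched, with 8 start sites in the RefSeq promoter table (GRCm38.p6). Csf1r was left out of the search, and Adgre1 had no entry. The 250 bases before the start were searched on both strands for GAGGAA, the core recognised by the macrophage factor PU.1, and for the E-box CACGTG and the M-box TCATGTG, which the lysosomal factors of the MiT/TFE family bind. None of these motifs lies within another. GAGGAA matches are in capitals (TTCCTC on the opposite strand). Positions are chr17:48346151-48346400 for Trem2, chr6:124304401-124304650 for Cd163, chr2:14229164-14229413 for Mrc1 and chr2:128698665-128698914 for Mertk, all on the plus strand. The Cd163 window ends past the gene start of 124304636 given above, because the promoter table uses a start site further inside the gene.
Trem2: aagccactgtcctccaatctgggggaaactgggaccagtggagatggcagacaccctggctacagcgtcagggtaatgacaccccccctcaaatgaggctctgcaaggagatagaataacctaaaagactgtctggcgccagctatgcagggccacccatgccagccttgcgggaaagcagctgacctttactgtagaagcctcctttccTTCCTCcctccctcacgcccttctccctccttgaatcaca
Cd163: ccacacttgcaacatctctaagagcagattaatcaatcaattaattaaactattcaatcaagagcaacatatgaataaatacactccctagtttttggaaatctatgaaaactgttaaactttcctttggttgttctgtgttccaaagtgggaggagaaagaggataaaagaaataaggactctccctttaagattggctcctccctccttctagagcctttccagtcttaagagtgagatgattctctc
Mrc1: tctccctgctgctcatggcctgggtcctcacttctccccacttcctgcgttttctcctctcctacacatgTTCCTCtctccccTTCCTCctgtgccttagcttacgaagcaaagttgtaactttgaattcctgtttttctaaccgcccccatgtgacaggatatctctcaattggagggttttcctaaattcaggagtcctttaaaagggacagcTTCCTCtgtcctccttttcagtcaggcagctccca
Mertk: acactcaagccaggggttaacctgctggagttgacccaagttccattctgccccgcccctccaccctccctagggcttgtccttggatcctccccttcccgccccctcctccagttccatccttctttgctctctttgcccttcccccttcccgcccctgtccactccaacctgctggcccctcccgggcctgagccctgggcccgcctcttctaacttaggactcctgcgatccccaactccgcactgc
GAGGAA occurred in 3 of the 8 member promoters searched, those of Mrc1 (3 matches), Cd68 and Trem2 (1 match each). It occurred in 23.3% of the 32851 promoters in the table. CACGTG and TCATGTG occurred in 0 of the 8, against 6.02% and 3.25% of all promoters. Trem2 and Cd163 thus differed in whether the GAGGAA letters were present in this window, and Mertk, like Cd163, had no match.

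Compared per length, 3 members changed their place in the order, Mertk downwards and Csf1r and Adgre1 upwards. Levels are given as the FPKM deposited by the authors for the transcript used, as mean ± SD of 2 libraries. In sham ECs Cd68 was highest with 32.0 ± 1.02 FPKM, followed by Mrc1 with 23.7 ± 0.389, Mertk with 20.7 ± 0.118 and Csf1r with 19.1 ± 0.566. Adgre1 with 8.95 ± 0.13 FPKM and Gpnmb with 6.85 ± 0.161 came next. Trem2 with 2.13 ± 0.00649, Folr2 with 1.12 ± 0.111 and Cd163 with 0.521 ± 0.0395 FPKM were lowest. After PNX the 2 leading genes were the same, with Cd68 at 57.1 ± 0.118 FPKM and Mrc1 at 38.8 ± 0.00671. Mertk, at 16.6 ± 0.149 FPKM, was passed by Csf1r at 31.0 ± 0.306 and by Adgre1 at 20.9 ± 0.0502. Gpnmb, Trem2, Folr2 and Cd163 kept their places, with 14.2 ± 0.252, 12.1 ± 0.251, 7.34 ± 0.211 and 2.94 ± 0.00236 FPKM. In neither group did the libraries of 2 neighbours in this order overlap. For scale, Pecam1, which encodes CD31, had between 373 and 375 FPKM in the 4 libraries and Ptprc, which encodes CD45, between 28.1 and 28.6.

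The members were also set against Csf1r within each library, a ratio that does not depend on the normalization. Per 1000 counts of Csf1r there were 32.3 and 33.6 counts of Trem2 in the sham libraries and 113 and 118 after PNX. Cd163 went from 29.2 and 33.9 to 109 and 111, and Folr2 from 17.1 and 15.4 to 66.9 and 65.2. These 3 genes were higher relative to Csf1r in both post-PNX libraries. Adgre1 went from 387 and 396 to 562 and 568 per 1000 Csf1r counts. Mrc1 had 1684 and 1716 in sham ECs and 1709 and 1733 after PNX, values that overlap between the groups. Cd68, with 516 and 562 against 589.6 and 596, and Gpnmb, with 338 and 364 against 439.5 and 457, shifted less. Mertk moved the other way, from 976 and 1009 to 490.1 and 491. No test of these ratios was made.

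**Figure D2:**
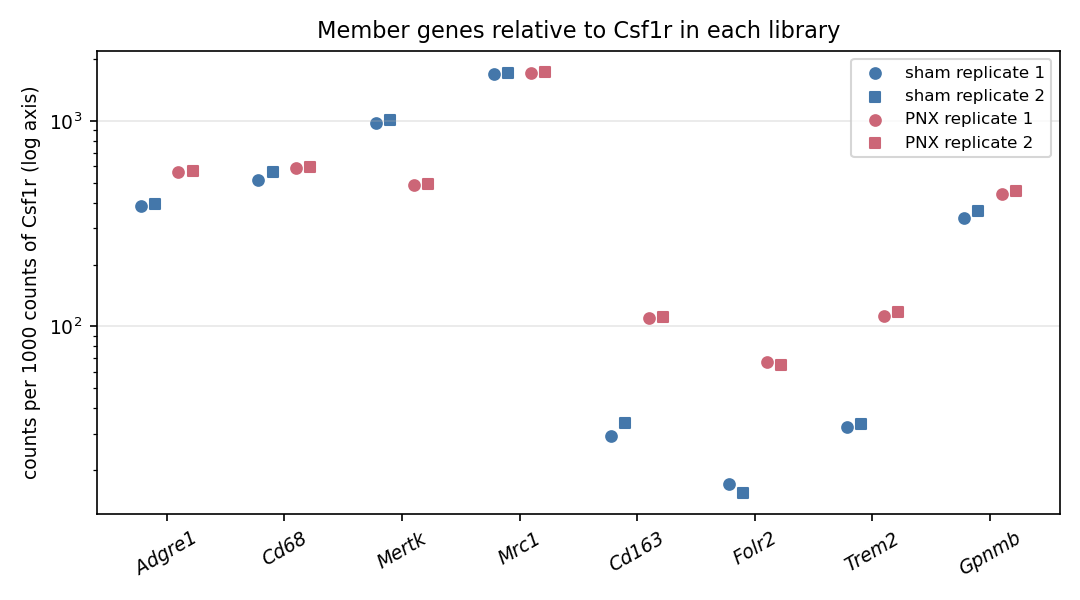
Counts of each other member per 1000 counts of Csf1r (log axis) in the 2 sham (blue) and 2 post-PNX (red) libraries, 1 point per library. Trem2, Cd163 and Folr2 lie higher after PNX, Mrc1 overlaps between the groups and Mertk lies lower, at 490 and 491 after PNX against 976 and 1009 in sham ECs.

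The companion genes of Csf1r were examined next. Of 13 genes for CSF1 receptor ligands, GM-CSF, its receptor chains and macrophage transcription factors, 9 rose, 2 fell and 2 did not pass (median change 0.41). Csf1, which encodes the main ligand, had 4453 and 4700.4 normalized counts in sham ECs and 4881 and 4887 after PNX, a change of 0.09 (adjusted p = 0.00227). Il34, the other ligand, had 375 and 401 against 432 and 443 and did not pass (adjusted p = 0.0411). The receptor itself changed by 0.68, against 0.09 and 0.18 for its ligands. Among the transcription factors, Maf rose by 0.74, Cebpb by 0.48 and Spi1, which encodes PU.1, by 0.44 on the log2 scale. Irf8, a factor of monocytes and dendritic cells, had overlapping groups (log2 fold change 0.02, adjusted p = 0.606), and Cebpa fell (-0.20).

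Around Mertk, genes of apoptotic cell uptake moved in both directions. Of 12 genes 6 rose, 2 fell and 4 did not pass, and their median log2 fold change was 0.08 (-0.048 with scaling to pan-leukocyte markers). Gas6, a ligand of the TAM receptors, rose from 8578 and 8706 to 10129 and 10325 normalized counts (log2 fold change 0.24), while Pros1, the other ligand, had 9707 and 9807 against 10128 and 9886 and did not pass (adjusted p = 0.130). Of the sister receptors, Axl rose by 0.08 on the log2 scale and Tyro3, at 227 and 239 against 292 and 269.6 normalized counts, did not pass (adjusted p = 0.0115). Cd36, a scavenger receptor that capillary ECs also express for fatty acid uptake, fell from 140128 and 134916 normalized counts to 91209 and 91333 (log2 fold change -0.59). Timd4, a phosphatidylserine receptor of resident macrophages, was the only gene of this list past the fold threshold, with 111 and 92.8 against 288 and 325 normalized counts (log2 fold change 1.58).

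The companions of Trem2 rose in part. Of 13 genes 7 rose, 2 fell and 4 did not pass, with a median log2 fold change of 0.26. Tyrobp, which encodes DAP12, the adaptor that TREM2 needs for signalling, rose from 4689 and 4751 to 6442 and 6334 normalized counts (log2 fold change 0.44), beside 2.49 for Trem2 itself. Spp1, which encodes osteopontin, went from 5192 and 5284 to 17203 and 17227 (log2 fold change 1.72). Apoe, an apolipoprotein bound by TREM2, went from 12436 and 12633 to 32897 and 33624 (log2 fold change 1.41). These and the fatty acid binding protein Fabp5, at 1988 and 1933 against 4085 and 4125 normalized counts, were the genes of this list above the fold threshold. Lgals3 and Cd63 rose with log2 fold changes of 0.72 and 0.88. Lpl, with 17923 and 17619 against 17529 and 17674 normalized counts, had overlapping groups and did not pass (adjusted p = 0.536). Treml4, a relative of Trem2 found on non-classical monocytes, fell from 508 and 504 to 243 and 237 (log2 fold change -1.07).

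Of 10 genes for the handling of haemoglobin, haem and iron by CD163 and by other routes, such as the transferrin receptor gene Tfrc, 8 rose and 0 fell, with a median log2 fold change of 0.31. Hmox1, the haem oxygenase, went from 1960.4 and 1944 to 5775 and 5674 normalized counts (log2 fold change 1.55). Slc11a1, a metal transporter of phagosomes, rose by 1.14 on the log2 scale, the ferritin light chain Ftl1 by 0.50 and the iron exporter Slc40a1 by 0.32. Hp, which encodes haptoglobin, had 7421 and 7543 normalized counts in sham ECs and 7149.7 and 7132 after PNX and did not pass. Beside Cd68 and Gpnmb, all 14 lysosome genes tested rose under TMM scaling, with a median log2 fold change of 0.34. Ctsk, the cathepsin known from osteoclasts and fibroblasts, went from 1151 and 1135 to 4647 and 4624 normalized counts (log2 fold change 2.02), and the cathepsin genes Ctsb and Ctss rose by 1.00 and 0.94. The MiT/TFE factors Mitf, Tfe3 and Tfeb rose by 0.27, 0.17 and 0.13, and Lamp1, a membrane protein of all lysosomes, by 0.09.

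Most markers of resident interstitial macrophages rose, while Lyve1 and Cbr2 fell. Of 12 genes, 9 rose and 2 fell, 8 and 2 of them by more than the fold threshold, and the median log2 fold change was 1.41. The complement gene C1qb went from 819.9 and 829 to 6510.0 and 6472 normalized counts (log2 fold change 2.98), and C1qa and C1qc rose by 2.82 and 2.96. Ms4a7 (2.66), Fcrls (2.03), F13a1 (1.48), Pf4 (1.34) and Cd14 (1.17) rose as well. Lyve1 encodes a hyaluronan receptor of perivascular macrophages and of lymphatic ECs. It fell from 44903 and 44521 to 20125 and 20334 normalized counts (log2 fold change -1.14). Cbr2 fell from 41224 and 41148 to 20441 and 20585 normalized counts (-1.01). Lyve1 and Cbr2 had far more counts in sham ECs than any other gene of this list. Which cells their RNA came from was not tested. Per length, Lyve1 had 234 and 232 FPKM in sham ECs, far above every member. Cx3cr1, a chemokine receptor of monocytes and some interstitial macrophages, had 706 and 719 against 801 and 755 normalized counts and did not pass (adjusted p = 0.0447).

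The 9 genes were then read beside markers of other macrophages and leukocytes. Cavity macrophage markers had a median log2 fold change of 2.01, with 9 of 10 genes higher, among them Cd5l (5.55) and Vsig4 (5.43), the latter from 9.06 and 12.2 normalized counts in sham ECs. Gata6, the factor that defines these cells but is also expressed by mesothelium and ECs, rose with 0.64, and Icam2, which ECs express strongly, fell with -0.08. Alveolar macrophage markers had a median of 0.11 (-0.023 with scaling to pan-leukocyte markers), with 5 of 10 genes higher and 4 lower. Car4, among the genes with the most counts there, rose with 0.24. Marco (2.99) and Chil3 rose, the latter from 66525 and 66208 to 190320.2 and 185561 normalized counts, whereas Siglecf, by which alveolar macrophages are gated, fell from 1934 and 1939.9 normalized counts to 1307 and 1329 (log2 fold change -0.56). Siglecf, like Pparg (-0.29) in the same list, was named after its value was seen. Monocyte markers had a median of -0.09 (0.17 with scaling to endothelial markers) with 4 genes higher and 5 lower of 10. Vcan (2.73) and Treml4 (-1.07) had the largest changes there, and Ace and Nr4a1, which ECs also express, had the most counts.

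Pan-leukocyte markers had smaller fold changes than 8 of the 9 macrophage genes. Of 8 genes 5 rose and 2 fell, with a median log2 fold change of 0.21 and a range from -0.15 to 0.33, and their summed level was between 44732 and 44765 normalized counts in sham ECs and between 48000 and 48649 after PNX. Ptprc overlapped between the groups, with 11597 and 11534 normalized counts in sham ECs and 11422 and 11665 after PNX (adjusted p = 0.905). All 7 T cell markers tested and all 8 B cell markers fell, with medians of -0.77 and -0.82. Neutrophil markers had a median of 0.16, with 5 of 7 higher, and Mmp8 (1.18) and Ltf (-0.54) changed in opposite directions. Of 11 dendritic cell and MHC class II genes 3 rose and 4 fell (median 0.02, -0.11 with scaling to pan-leukocyte markers and -0.015 without the second sham library), with Ccr7 at -1.33 and Cd74 at 0.16. Summed over each list, the macrophage members had between 27428 and 27770 normalized counts in sham ECs and between 44886 and 44889 after PNX. In both groups the members, Ptprc and the other leukocyte markers were well above 0, in cells described as CD45-. The part of leukocyte or macrophage RNA in the fraction in these results was not tested.

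**Figure D3:**
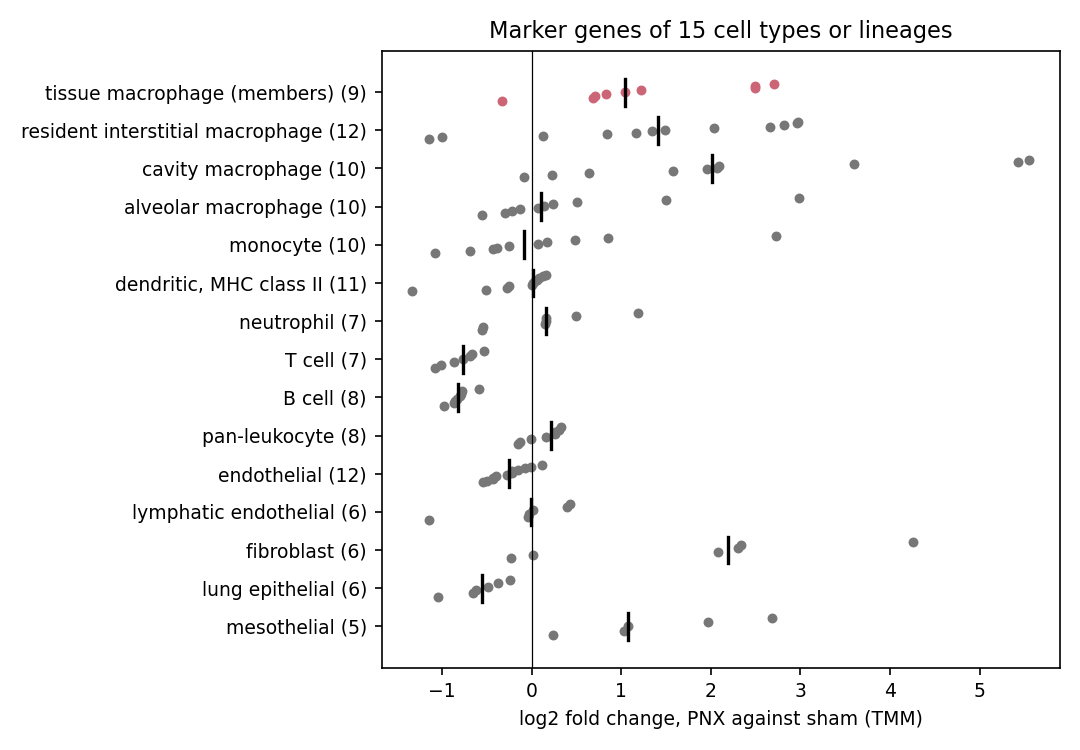
Log2 fold change between post-PNX and sham ECs of each gene tested in 15 lists of marker genes (1 point per gene, number of genes in parentheses, TMM scaling), with the median of each list as a black bar. The members (red) have a median of 1.04. The fibroblast (2.19), cavity macrophage (2.01), resident interstitial macrophage (1.41) and mesothelial (1.08) lists have higher medians. The pan-leukocyte median is 0.21, while T cell and B cell markers lie below 0.

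Other cell types also moved between the groups. Of 12 endothelial markers 10 fell and 1 rose under TMM scaling (median log2 fold change -0.25, and 0.013 when scaled to these markers themselves), with Pecam1 at -0.01 (adjusted p = 0.636), Cdh5 at -0.22, Tek at -0.50 and Eng at -0.54. Of 6 lymphatic endothelial markers tested 2 rose and 1, Lyve1, fell (median -0.003, 0.26 with scaling to endothelial markers), with Prox1, which defines these cells, at 0.43 and Flt4 at -0.02 (adjusted p = 0.342). Fibroblast markers had a median of 2.19 (4 of 6 higher, Lum at 4.26 and Col1a1 at 2.34), and all 5 mesothelial markers tested rose (median 1.08, Wt1 at 2.68 and Msln at 1.97). All 6 lung epithelial markers fell (median -0.55), with Scgb1a1 at -1.04. These values move between the same 2 groups as the macrophage genes, and their part in the results was not tested.

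The size of the members' changes followed the gene set used for scaling. Scaling to 12 endothelial markers raised the median log2 fold change of all genes to 0.26, and on that scale 8 members were higher, 0 lower and 6 past the fold threshold, Cd68 among them. The share of genes called higher then was 58.8%, that of genes higher past the fold threshold 8.20% and that of genes called lower 8.43%. With TMM these were 29.3%, 5.90% and 27.8%. Scaling to 8 pan-leukocyte markers lowered the median of all genes to -0.13 (18.5% higher, 5.05% higher past the fold threshold and 43.0% lower). On that scale 8 members rose and 1 fell, 4 of them past the fold threshold, and the log2 fold changes were 0.56 for Csf1r, 1.09 for Adgre1, 0.70 for Cd68, 0.57 for Mrc1, 2.36 for Cd163, 2.57 for Folr2, 2.37 for Trem2, 0.91 for Gpnmb and -0.46 for Mertk. The 8 rises were thus present on this scale too. T cell and B cell markers fell between the same groups, and a change in the mix of leukocytes was not tested.

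**Figure D4:**
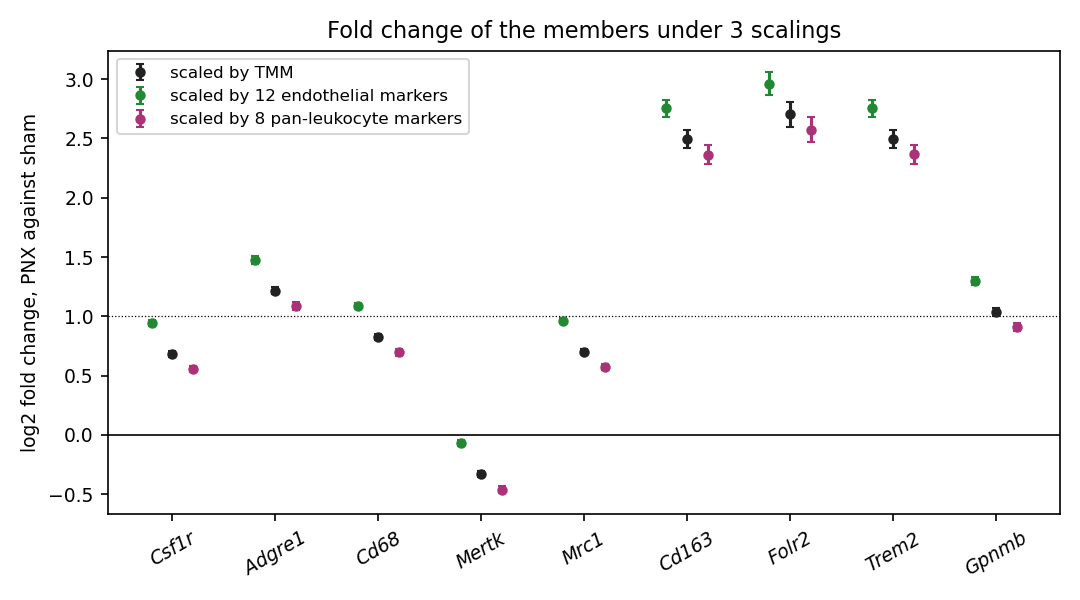
Log2 fold change of the 9 members between post-PNX and sham ECs (points, with the standard error of the edgeR fit as bars) under TMM scaling, scaling to 12 endothelial markers and scaling to 8 pan-leukocyte markers. The dotted line marks a log2 fold change of 1. Cd163, Folr2 and Trem2 lie above 2 under each scaling, and Mertk lies between -0.07 and -0.46.

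For 5 of the 9 genes (Csf1r, Adgre1, Mrc1, Cd163 and Folr2) a microRNA or a predicted gene model overlaps the gene in the RefSeq annotation, and whether the counting used the strand is not given in the sources used here. Cd68, Cd163 and Trem2 had 2 transcripts each in the tables. For Trem2 these had 199 and 199 counts in the first sham library, and for Cd68 3174 and 2358, so the transcripts share reads and are not separate measurements.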

How the data were processed

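Polyadenylated RNA of CD31-selected lung cells was sequenced as paired ends with a stranded kit and aligned to mm10 (STAR is named in the submitters' processing notes; the counting program is not given in the sources used here). For each library the authors deposited raw counts on 33068 RefSeq transcripts, with the FPKM and TPM of each. The FPKM deposited by the authors is scaled to counts summed over all transcripts: it gave whole transcript lengths (within 0.2 bases) in 100% of transcripts with over 100 counts. The TPM deposited by the authors was not used.

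Each symbol was represented by its transcript with the highest count summed over the 4 libraries. Of 193 symbols in the gene lists 190 were matched, 2 of them by RefSeq accession (Adgre1 as Emr1, Siglecf as Siglec5). Counts were analysed with edgeR 4.0.16 in R 4.3.3 (filterByExpr, TMM factors between 0.9985 and 1.0026, quasi-likelihood F test, Benjamini-Hochberg adjustment). Thresholds were an adjusted p of 0.01 and, where stated, a log2 fold change of 1. Normalized counts were brought to the mean library size with the TMM factors, and the standard error is the log2 fold change divided by the square root of F. No covariate was used. The alternatives included DESeq2 1.42.0 and are given below. Each library counted as 1 replicate, because the study describes each as a separate pool. The 2 libraries of a group differed by more than counting noise (mean chi-square per gene 1.74 in sham and 1.51 after PNX). Such an excess can also arise from technical steps, so it cannot show that the libraries are independent. Simulated data were used to test the steps. The members and the lists were chosen with earlier results of these data known. All members were named, and any companion gene of their pathways could be. In each list of other cells, the 2 genes with the highest mean could be named. So could the 2 with the largest change at a mean of at least 100 normalized counts. Not all of these are given, and Siglecf and Pparg were named outside this rule.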

Additional observations from a re-analysis of the deposited data

How the results depend on the processing

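The members that rose were 8 in all and 5 past the fold threshold. These numbers did not change with DESeq2's size factors, library size alone, no filter or a stricter filter (mean count of 50). Counts summed over transcripts and the Wald test of DESeq2 did not change them either. The fold threshold was passed by 6 members under endothelial scaling (8.20% of all genes) and by 4 under pan-leukocyte scaling (5.05% of all genes). The median log2 fold change of the members was 1.30 under scaling to endothelial markers and 0.91 under scaling to pan-leukocyte markers, because these scalings shift all genes, and it lay between 1.02 and 1.06 when a library was left out; a group then had a lone library, which was assumed to vary like the others. Scaling to endothelial markers turned the medians of the monocyte list (to 0.17), the endothelial list (to 0.013) and the lymphatic list (to 0.26), and took Mertk to -0.07. Scaling to pan-leukocyte markers turned those of the apoptotic cell uptake list (to -0.048), the alveolar list (to -0.023) and the dendritic list (to -0.11). The dendritic median was -0.015 without the second sham library, and the lymphatic median, close to 0, lay between -0.0074 and 0.017 when a library was left out. The replicate number as a block changed no call of a member (8 higher, 5 past the fold threshold, median log2 fold change 1.04). Libraries of the same number come from different mice, and their deviations correlated with 0.030. Whether they shared a preparation or sequencing batch is not given in the sources used here. With 2 pools of 2 mice per group, the p-values rest on dispersion estimates that the edgeR fit shares across genes. The only spread behind these estimates is that between the 2 libraries of each group. That spread was small (median SD between replicates 0.045 on the log2 scale). Whether it holds the variation between mice or only technical variation was not tested. The lowest member, Folr2, had 81 counts in its lowest library.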
